A study of Mus musculus with 64 samples.

Results

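The comparison described here was made in activated wild type macrophages and asked how the transcriptome moved between 3 h and 20 h after activation. Bone marrow-derived macrophages (BMMs), grown from bone marrow with medium conditioned by the fibroblast line L929, were cultured for 6 h with 0.01% DMSO and then given 10000000 heat-killed Salmonella Enteritidis (hk S.E.) per ml for 3 h or 20 h. The members were the 4 libraries of activated Ahr+/+ cells at 20 h and the 4 at 3 h, chosen by the sample titles, so 8 of the 64 libraries of the series. The unactivated Ahr+/+ cells of the same times (4 and 4 libraries), with DMSO and without bacteria, served as controls for time in culture. Activated Ahr-/- cells with DMSO (4 and 4 libraries), from mice that lack the aryl hydrocarbon receptor in all cells, served as libraries that took no part in sorting the genes. Ahr+/+ cells came from adult female C57BL/6JRj mice and Ahr-/- cells from adult C57BL/6 mice backcrossed to C57BL/6JRj. Exposure to a receptor ligand belongs to the other groups of the series and is not described here.

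Heat-killed Gram-negative bacteria are sensed by macrophages through Toll-like receptors, above all TLR4, the receptor of lipopolysaccharide. Signalling through MyD88 and TRIF activates NF-kB, MAP kinases and IRF3. A first wave of immediate early factors, cytokines and chemokines follows, and the interferon-beta made in it acts back on the cells and switches on interferon-stimulated genes. Later come the products that damp the response, and a reset of metabolism, growth and surface receptors. In such a course genes may be transient, sustained or late.

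The activated 3 h libraries held 17469961 to 22641087 counts in genes and the activated 20 h libraries 21933112 to 47689280. Unactivated Ahr+/+ libraries held 15678717 to 30760778 at 3 h and 21347014 to 233047331 at 20 h, the highest in replicate 4. Levels are given as CPM, a gene's counts relative to the TMM-scaled library total, and compare a gene with itself between libraries. Of 55487 genes listed, 14537 passed the filter on low counts and were tested with edgeR's quasi-likelihood test on all 64 libraries. A gene was called at a Benjamini-Hochberg adjusted p below 0.01. Mitochondrial genes took 1.15 to 1.22% of counts at 3 h and 0.531 to 0.88% at 20 h, and the 10 most abundant genes took 10.6 to 11.4% and 13.9 to 15.8%. The summed level of 12 macrophage markers was 33444 to 36598 CPM at 3 h and 20070 to 24068 CPM at 20 h, so the labelled cell type was present at both times. Markers of NK cells and of mast cells and basophils summed to at most 0.226 and 0.211 CPM. The 8 neutrophil markers summed to 111 to 261 CPM at 3 h and 22.5 to 40.1 CPM at 20 h, the 7 T cell markers to 4.36 to 9.5 and 1.26 to 1.87 CPM, the 6 B cell markers to 5.3 to 8.43 and 0.873 to 1.12 CPM, and the 6 erythroid and megakaryocyte markers to 89.3 to 116 and 12.8 to 19.2 CPM. The 7 dendritic cell markers moved the other way, from 1.88 to 4.5 CPM to 20.5 to 39.9 CPM, mostly through Ccr7, and the 6 fibroblast markers from 0.211 to 0.554 CPM to 1.79 to 2.75 CPM. Of these markers 1 of NK cells, 1 of dendritic cells, 3 of mast cells and basophils and 3 of the erythroid and megakaryocyte list were at 0 in all 8 libraries. The part of these cells in the results was not tested, and in such bulk samples fewer cells of a type and less RNA per cell cannot be told apart. Replicates 1 and 2 at 3 h carried identifiers of another library series (RIB0031) than the other 6 libraries (RIB0015). The labels do not say whether same-numbered replicates came from 1 mouse, so p-values measure the spread between these libraries. By the paper's methods each genotype had as many mice as a group has libraries, so libraries of different groups can share a mouse. The fit treated all libraries as independent.

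The targeted gene was read in the libraries labelled Ahr-/- before they were used. Ahr counts were present there, at 13.1, 12.8, 12.9 and 12.8 CPM at 3 h and 24.1, 21.3, 25.9 and 28.1 CPM at 20 h. Activated Ahr+/+ cells had 9.77, 6.67, 7.13 and 4.46 CPM at 3 h and 14.9, 12.7, 12.7 and 11.9 CPM at 20 h. The count sums all exons, so it does not check a deletion of part of the gene, and "Ahr-/-" is used below as the label only.

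Between 3 h and 20 h most of the transcriptome moved. Acute phase genes such as Saa3 and Lcn2 rose by more than an order of magnitude, the integrated stress genes Chac1 and Trib3 rose, and Cxcl10, Ifit1 and the cell cycle gene Mki67 fell. Of the genes tested, 8643 (59.5%) were called at 20 h against 3 h, 4799 higher (33%) and 3844 lower (26.4%). With a fold change of at least 2 asked as well (an absolute log2 value of 1), 2644 genes (18.2%) were higher and 2253 (15.5%) lower, together 33.7%. The 2 sets of 4 libraries did not overlap for 9701 genes (66.7%), and the first principal component of the 8 libraries, with 83.9% of their variance, separated the times. In unactivated cells 883 genes (6.07%) were called over the same hours, 481 higher (3.31%) and 402 lower (2.77%), and the change with time differed between activated and unactivated cells for 6950 genes (47.8%). The share of called genes that were higher was 55.5% with TMM, 51.6% with DESeq2's size factors and 70.6% with library totals alone, and the median log2 difference over all genes was 0.08, 0.00 and 0.40.

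**Figure D1:**
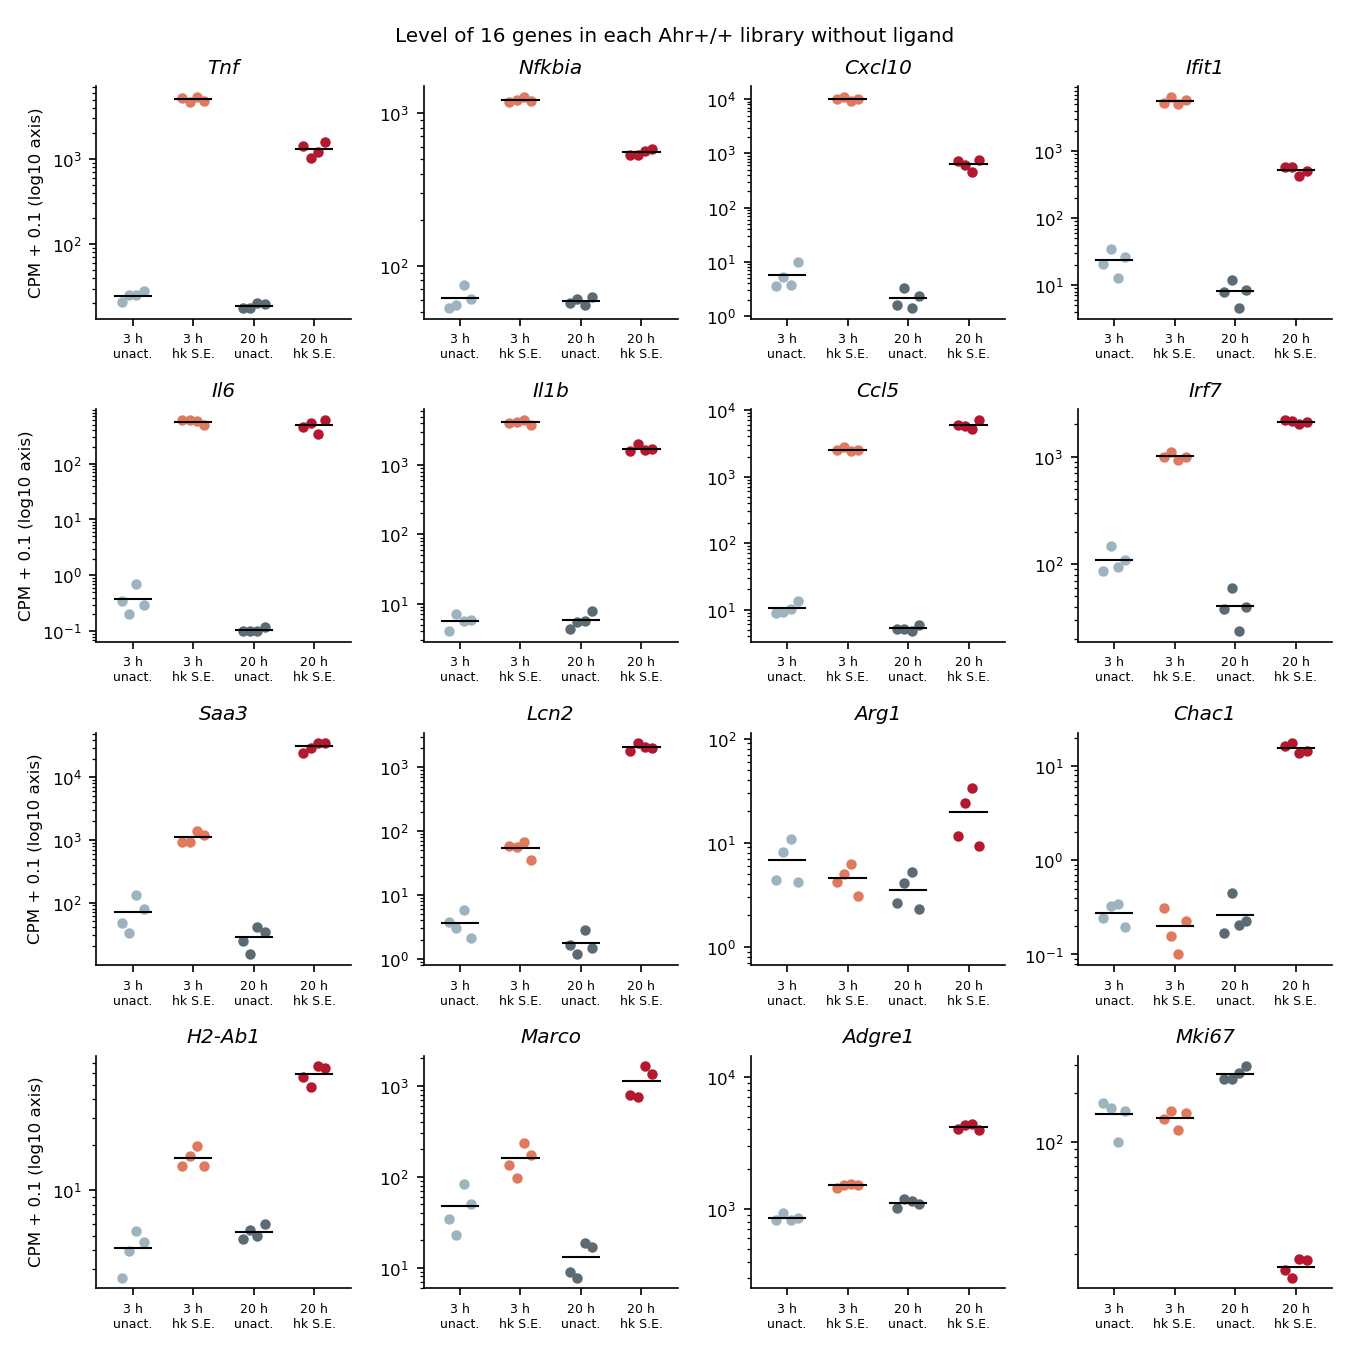
Levels of 16 genes in each Ahr+/+ library without ligand, as CPM plus 0.1 on a log10 axis, in unactivated and activated cells at 3 h and 20 h; points are libraries and lines are group means. Activated libraries at 3 h and 20 h overlapped for Il6 and did not for Saa3, which stood between 911 and 1400 CPM at 3 h and between 24928 and 35315 CPM at 20 h.

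Genes were sorted by their course against unactivated cells of the same time. With hk S.E. 8222 genes (56.6%) were called at 3 h against unactivated cells, 3525 of them higher (24.2%) and 4697 lower (32.3%), and 8520 (58.6%) at 20 h. At 3 h hk S.E. had raised 2039 genes (14%) by at least 2-fold. At 20 h 1331 of these (65.3%) were lower than at 3 h, 241 (11.8%) were higher, and their median log2 difference was -1.07. Of the 2748 genes (18.9%) lowered at least 2-fold at 3 h, 1792 (65.2%) were higher at 20 h, 272 (9.9%) were lower still, and the median was 1.21. In the libraries labelled Ahr-/-, which had no part in the sorting, 1397 of the early raised genes were lower at 20 h and 199 higher, and 1789 of the early lowered genes were higher and 245 lower. These activated Ahr-/- libraries all carried identifier series RIB0015 at 3 h and RIB0020 at 20 h. Time and series therefore cannot be told apart within them, here and in the classes below. The early raised set was bounded by Usp7, just inside with a log2 value of 1.0004, and Fancc, just outside with 0.9991.

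The early raised genes divided into 580 transient genes, which fell and were not higher than in unactivated cells at 20 h, 751 declining genes, which fell and were still higher, 411 sustained genes, not called between the times, and 241 genes still rising. The other 56 fitted none of these. A further 1015 genes were late, not raised at 3 h, at least 2-fold higher at 20 h than at 3 h and higher than in unactivated cells at 20 h. The classes come from comparisons that share libraries and are a description of them, without a test. Of the 580 transient genes, 553 were lower at 20 h in the activated cells labelled Ahr-/- and none was higher, with medians of -2.11 in Ahr+/+ and -2.13 in Ahr-/-. For the 751 declining genes 705 were lower and none higher there. Among the 411 sustained genes 118 were lower and 34 higher there, and among the 241 still rising genes 165 were higher and 6 lower. Of the 1015 late genes 926 were higher and none lower, with medians of 1.77 and 1.35. Over all genes tested 8137 (56%) were called in that genotype, 31.7% higher and 24.3% lower, and 6740 were called with the identifier series as a covariate. The late genes had a median of -0.63 at 3 h against unactivated cells, beside -0.10 over all genes tested. Of them 255 (25.1%) also belonged to the 1071 early lowered genes that recovered by 20 h, 23.8% of those. These 1071 were 7.37% of all genes tested. The late class leaves out genes raised at 3 h and asks for a rise from 3 h. A low value at 3 h is thus partly built into it.

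**Figure D2:**
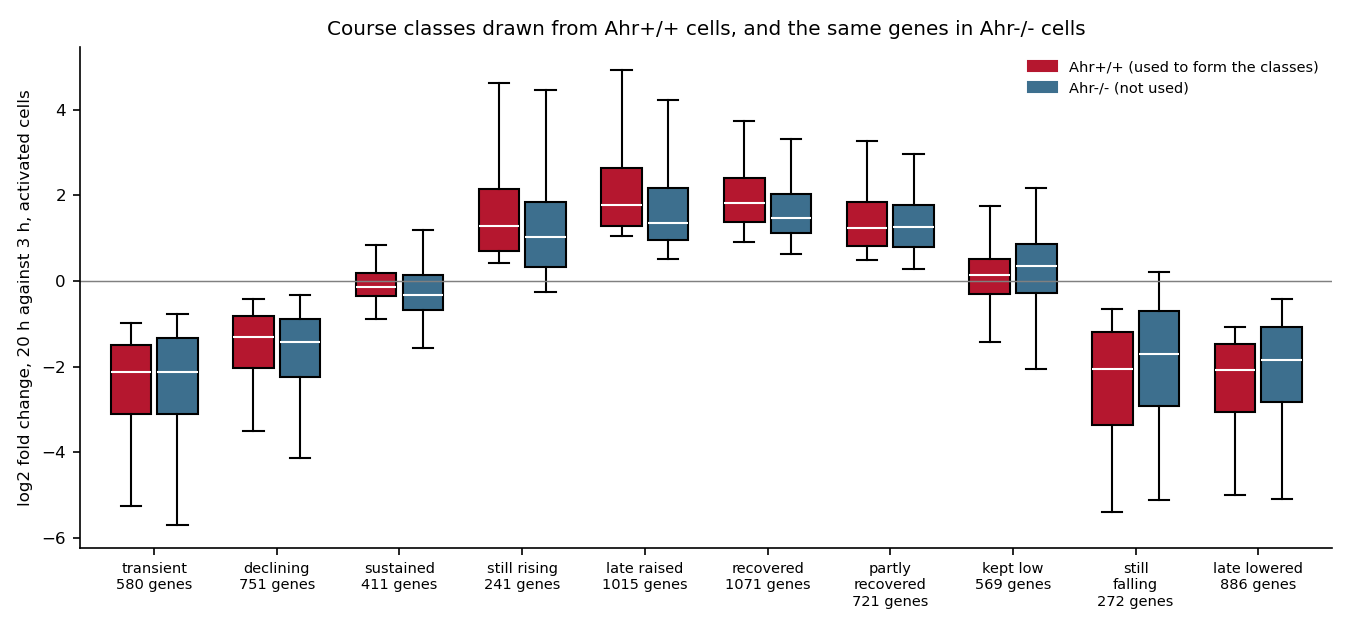
Box plots of the log2 fold change of 20 h against 3 h in activated cells, by course class, in Ahr+/+ cells (used to form the classes) and Ahr-/- cells (not used); boxes are quartiles with the median and whiskers run from the 5th to the 95th percentile of genes. Class medians were -2.11 and -2.13 for transient genes and 1.77 and 1.35 for late raised genes.

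The NF-kB list holds subunits of the factor and the proteins it induces to switch itself off. Of its 20 members 19 were higher with hk S.E. at 3 h, and at 20 h 16 had fallen from 3 h, none had risen and 4 were not called. Their median log2 difference was -1.14 in Ahr+/+ and -1.34 in Ahr-/- cells, beside 0.08 over all genes. Counts between the times, in this and the later lists, stand beside 33% of all genes tested higher at 20 h and 26.4% lower. Nfkbia, which encodes the inhibitor IkB-alpha that holds NF-kB in the cytoplasm, had 1171, 1217, 1276 and 1188 CPM at 3 h and 533, 527, 561 and 579 CPM at 20 h. The 20 h libraries lay below the 3 h ones without overlap and far above the 58.8 CPM mean of unactivated cells. The log2 difference was -1.14 with an SE of 0.12 (adjusted p = 2.95e-12). Zfp36, whose product tristetraprolin destabilises cytokine mRNAs, fell below its unactivated level of 236 CPM, from 1535, 1801, 1567 and 1516 CPM to 134, 155, 159 and 137 CPM. Rel and Nfkb1, both subunits, fell by 2.89 and 2.48 on the log2 scale, and Rela fell by 0.74. Tnfaip3, which encodes the ubiquitin editing enzyme A20, and Nfkbiz, the nuclear co-activator IkB-zeta, each fell by 1.83 and still stood at 466 to 562 and 247 to 298 CPM.

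Promoter sequences from RefSeq are printed where they belong to genes of the main groups. They run from 250 bases before to 50 bases from the annotated start, in GRCm38.p6, 5' to 3' on the gene's strand, in lower case with the searched motif in capitals. The Nfkbia promoter (chr12:55492598-55492897, minus strand, gene at 55489410 to 55492647) holds 1 match to the NF-kB letters, GGGA and TTCC with 2 bases of any kind between them, at bases -29 to -20, on the other strand. These letters were searched on both strands and are in 1.47% of all 32851 promoters of the table. Of the NF-kB list, 17 of the 20 genes have an entry, with 22 promoters, of which 4 (18.2%) hold the letters. For all tested genes only 68.9% of symbols have an entry, so shares by course class are void and are not given.
Nfkbia: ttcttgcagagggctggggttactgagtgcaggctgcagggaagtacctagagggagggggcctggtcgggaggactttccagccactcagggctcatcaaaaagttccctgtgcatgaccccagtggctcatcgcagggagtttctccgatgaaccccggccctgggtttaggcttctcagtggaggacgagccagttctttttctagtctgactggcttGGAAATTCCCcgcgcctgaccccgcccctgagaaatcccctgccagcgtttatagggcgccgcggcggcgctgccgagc

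Of 24 immediate early factors 11 fell, 3 rose and 10 were not called. Fos, which encodes a subunit of AP-1, had 105, 112, 115 and 96.2 CPM at 3 h and 21.9, 37.9, 28.8 and 15.2 CPM at 20 h. It fell by 2.05 (adjusted p = 9.44e-11) and was already below unactivated cells at 3 h, with 382 CPM there. Myc fell from 11.8 to 15.7 CPM to 2.73 to 3.61 CPM, and Egr2 by 3.99. Klf4, a factor of monocyte differentiation, rose by 1.89. Nr4a1 was not called (log2 difference -0.64, adjusted p = 0.104), but was in the fits of the 8 activated libraries alone or of Ahr+/+ libraries without ligand (-0.69 in each).

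Of 11 MAP kinase phosphatases 4 rose and 3 fell, near the shares of all genes tested (33% higher and 26.4% lower). Dusp2 fell from 219, 274, 257 and 222 CPM to 16.6, 20.5, 19.7 and 17.9 CPM, without overlap, a log2 difference of -3.70 (adjusted p = 5.33e-31). Dusp1, the early brake on p38 and JNK, had 145, 192, 139 and 132 CPM at 3 h and 185, 175, 109 and 126 CPM at 20 h. Its groups overlapped and it was not called (-0.03, adjusted p = 0.915), and its sign turned under other settings.

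Of 13 feedback genes of JAK-STAT signalling 7 fell, 1 rose and 5 were not called, with a median of -0.60, or -0.27 with library totals. Cish had 73.2, 73.5, 63.2 and 73.5 CPM at 3 h and 3.1, 2.32, 1.82 and 2.36 CPM at 20 h and fell by 4.90 (adjusted p = 2.12e-20). Socs1 fell by 3.23. Socs3, the inhibitor of signalling by IL-6, fell by 1.52 and kept 471 to 541 CPM against 4.11 CPM in unactivated cells.

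Cytokines left 3 h along different courses. Of 28 tested 15 fell, 3 rose and 10 were not called, and 13 of them were declining, 9 sustained and 2 still rising. Tnf, the master inflammatory cytokine, had 5262, 4676, 5413 and 4839 CPM at 3 h and 1410, 1024, 1208 and 1567 CPM at 20 h. The libraries did not overlap, and the difference was 3.88-fold (log2 -1.95, SE 0.12, adjusted p = 8.02e-21). Il27, which encodes a subunit of a regulatory cytokine, fell by 3.77, from 472 to 580 CPM to 31.7 to 46.8 CPM. Ifnb1, interferon-beta itself, fell from 13.8, 22.3, 13.2 and 17.8 CPM to 0.494, 0.598, 1.48 and 1.02 CPM (log2 -4.17, adjusted p = 2.90e-13). Il15, a growth factor of NK and memory T cells, was transient and fell by 4.89.

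Il6 and Il12b stayed high. Il6 had 599, 607, 567 and 492 CPM at 3 h and 455, 540, 332 and 595 CPM at 20 h, which overlapped (-0.24, adjusted p = 0.377). Il12b, the p40 subunit of IL-12 and IL-23, had 90.3, 67.5, 90.6 and 80.5 CPM and then 89.2, 67.3, 77.5 and 82.9 CPM (-0.05, adjusted p = 0.857). A p above the threshold does not show that their levels were equal, and with library totals both differences were above 0. The partner subunit Il12a rose, from 5.54 to 6.16 CPM to 15.8 to 19.7 CPM (1.66, adjusted p = 5.09e-05), and had no count in the 8 unactivated libraries. Against the level that 3 counts over a group would give, it was at least 195-fold higher with hk S.E. at 3 h and at least 2368-fold higher at 20 h. That level was 0.0295 CPM at 3 h and 0.00779 CPM at 20 h, where unactivated replicate 4 held 233047331 counts. The bounds thus depend on the depth of the unactivated libraries and do not compare the times. Inhba, the subunit of activin A, rose most among cytokines, from 85.9, 63.3, 72 and 60.2 CPM to 960, 737, 462 and 665 CPM (3.33, adjusted p = 6.37e-14). Il1b fell by 1.26 and still had 1610 to 1988 CPM.

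Most chemokines fell. Of 9 CXC chemokines 8 fell and none rose, and of 11 CC chemokines 7 fell and 1 rose, with medians of -2.62 and -1.91. Cxcl10, the ligand of CXCR3 that draws T and NK cells, had 9922, 11178, 9290 and 10196 CPM at 3 h and 730, 607, 451 and 755 CPM at 20 h. All 20 h libraries lay below all 3 h ones, 16-fold apart (SE 0.33 on the log2 scale, adjusted p = 5.76e-16), and above the 2.04 CPM of unactivated cells. Ccl4 and Ccl3, which draw monocytes and T cells, fell by 3.28 and 1.92. Cxcl1 and Cxcl2, which draw neutrophils, fell by 2.91 and 1.32.

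Ccl5 went the other way. This attractant of T cells and monocytes had 2480, 2768, 2404 and 2501 CPM at 3 h and 6018, 5684, 5268 and 7126 CPM at 20 h, without overlap (1.25, SE 0.21, adjusted p = 7.84e-07). Ccl2, the monocyte attractant, had 682, 650, 408 and 625 CPM and then 502, 458, 278 and 370 CPM, which overlapped, and was not called (adjusted p = 0.0588), but was in a fit of the 8 libraries alone (-0.60).

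The Cxcl10 promoter (chr5:92348840-92349139, minus strand) holds the NF-kB letters at bases -159 to -150 and the letters GAAA and GAAA with 2 bases of any kind between them, a core of the interferon-stimulated response element (ISRE), at -213 to -204. The ISRE letters are in 3.44% of all promoters. A match is a description of the letters and not a binding site.
Cxcl10: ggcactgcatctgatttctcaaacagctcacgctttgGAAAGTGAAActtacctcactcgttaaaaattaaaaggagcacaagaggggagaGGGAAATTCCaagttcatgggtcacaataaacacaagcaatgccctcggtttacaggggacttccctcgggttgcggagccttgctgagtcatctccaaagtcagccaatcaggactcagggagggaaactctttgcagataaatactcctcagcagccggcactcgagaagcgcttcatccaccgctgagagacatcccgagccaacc

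Interferon-stimulated genes remained above unactivated cells while many fell from 3 h to 20 h. All 40 genes of the type I list were higher with hk S.E. at 3 h and 39 at 20 h, beside 24.2% and 29.9% of all genes tested. Between the times 24 fell, 3 rose and 13 were not called, 20 of the falls being at least 2-fold. The median log2 difference between the times was -0.96 in activated and -0.74 in unactivated cells. Against unactivated cells of the same time the list's median was thus 3.52 at 3 h and 3.59 at 20 h. For 22 of the 40 the change with time differed between activated and unactivated cells, beside 47.8% of all genes tested. Ifit1, which binds foreign RNA caps, had 5324, 6563, 4998 and 5802 CPM at 3 h and 584, 577, 421 and 500 CPM at 20 h. It fell by 3.45 (SE 0.39, adjusted p = 2.25e-11) and stayed above unactivated cells, which had means of 23.5 CPM at 3 h and 8.18 CPM at 20 h. Cmpk2 and Ifih1, the latter the RNA sensor MDA5, fell by 3.96 and 3.51. Isg15, a ubiquitin-like modifier, had 1029, 1106, 949 and 973 CPM and then 1047, 923, 907 and 1153 CPM, which overlapped (-0.01, adjusted p = 0.969). Irf7, the interferon-induced factor that drives interferon-alpha genes, rose from 996, 1119, 928 and 987 CPM to 2208, 2153, 2040 and 2112 CPM (1.08, adjusted p = 3.23e-04). Bst2, the tether of budding virus, rose by 1.34.

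The Ifit1 promoter (chr19:34640639-34640938, plus strand, gene at 34640871 to 34650009) holds the ISRE letters at -104 to -95 and again at -85 to -76, both on the other strand.
Ifit1: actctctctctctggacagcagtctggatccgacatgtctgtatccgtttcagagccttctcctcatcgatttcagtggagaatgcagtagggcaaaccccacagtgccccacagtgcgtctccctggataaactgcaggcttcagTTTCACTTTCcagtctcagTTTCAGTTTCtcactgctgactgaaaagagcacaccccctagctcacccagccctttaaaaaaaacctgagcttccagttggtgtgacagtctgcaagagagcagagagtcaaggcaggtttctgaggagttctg

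Interferon-inducible GTPases, which attack the vacuoles of intracellular microbes, also fell: 14 of 17 fell, all by at least 2-fold, and 1 rose, with a median of -1.96. Gbp5 went from 2620, 2965, 2391 and 2429 CPM to 266, 221, 202 and 281 CPM (-3.42, adjusted p = 1.29e-18). Iigp1 fell by 3.74. Gbp8 was the exception and rose by 2.56, from 1.38 to 3.45 CPM to 9.59 to 18.1 CPM. Tgtp1 fell by 3.50, but it has a near-identical copy and its reads may be split. Among 8 interferon regulatory factors 4 fell and 2 rose. Irf1 fell from 1373, 1488, 1329 and 1439 CPM to 161, 160, 164 and 192 CPM (-3.06, adjusted p = 1.45e-28), and Irf8 and Irf5, factors of the myeloid inflammatory program, fell by 2.34 and 1.88.

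In the MHC class I and immunoproteasome list 18 of 19 genes were higher with hk S.E. at 3 h and all 19 at 20 h, and between the times 9 rose, 3 fell and 7 were not called, with a median of 0.21. H2-K1, a classical class I heavy chain, had 1908, 1915, 1960 and 1900 CPM at 3 h and 3841, 3500, 3617 and 4083 CPM at 20 h (0.97, SE 0.09, adjusted p = 5.70e-14). H2-Q7 and H2-Q6 rose by 2.98 and 2.36, but they are near-identical copies and the division between them is uncertain. Nlrc5, the transactivator of class I genes, fell by 1.49. Of 12 genes of class II presentation 1 rose, 2 fell and 9 were not called. H2-Ab1, a class II beta chain, had 14.4, 16.7, 19.4 and 14.3 CPM and then 55.8, 48, 66.2 and 64.3 CPM, all higher (1.85, adjusted p = 2.55e-06). Cd74, the invariant chain, had 29.5 to 60.9 CPM at 20 h over 37.3 to 54.3 CPM at 3 h (0.02, adjusted p = 0.957), with a sign that turned under other settings.

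**Figure D3:**
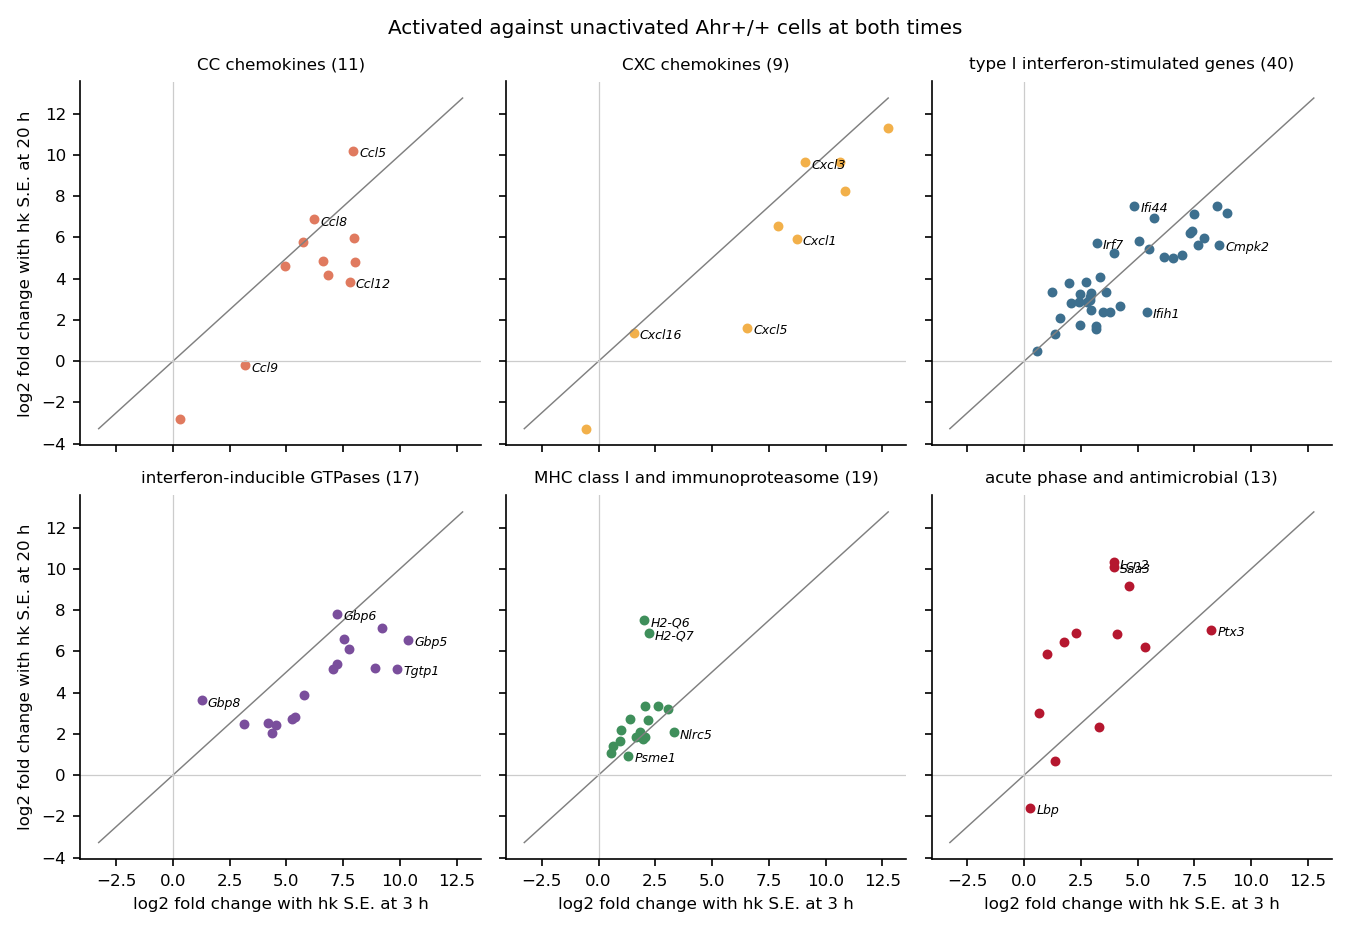
Log2 fold change of activated against unactivated Ahr+/+ cells at 3 h (horizontal) and 20 h (vertical) for the members of 6 gene lists, 1 panel a list, with the line of equality; named are the 2 genes with the lowest and the 2 with the highest difference between the times. Points below the line were more raised at 3 h, as Cxcl1 with 8.73 at 3 h and 5.93 at 20 h, and points above it were more raised at 20 h, as Saa3 with 3.94 and 10.10.

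Of 14 costimulatory and checkpoint molecules 9 fell and 2 rose. Icam1, the adhesion ligand of LFA-1, had 2048, 2031, 2216 and 2072 CPM at 3 h and 195, 165, 184 and 206 CPM at 20 h (-3.48, adjusted p = 7.26e-37). Tnfsf4, the ligand of OX40, fell by 4.76. Cd86 rose by 0.69 but its groups overlapped.

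Acute phase and antimicrobial genes had the highest median of the 27 lists. Of 13 tested, 8 rose and 4 fell, all at least 2-fold, and 7 were still rising. Their median was 2.83 in Ahr+/+ and 3.18 in Ahr-/- cells. Saa3, a serum amyloid A made by macrophages, had 911, 917, 1400 and 1182 CPM at 3 h and 24928, 29648, 35086 and 35315 CPM at 20 h. It rose 28.3-fold (log2 4.82, SE 0.39, adjusted p = 2.30e-16) from a level already above unactivated cells. Lcn2, which binds bacterial siderophores and so withholds iron, had 58.3, 57.2, 67.5 and 35.2 CPM and then 1819, 2398, 2048 and 2012 CPM, 38-fold higher (5.25, adjusted p = 1.90e-18). Orm1, an acute phase glycoprotein, rose by 4.70. Ptx3, a soluble pattern receptor, and Chil3 fell by 1.94 and 2.22. Saa2 was called higher with at most 0.635 CPM in any library, and has the near-identical copy Saa1.

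Genes of arginine use moved in both directions. Nos2, inducible nitric oxide synthase, had 1180, 1245, 791 and 843 CPM at 3 h and 330, 267, 295 and 174 CPM at 20 h (-1.93, adjusted p = 9.73e-08). Arg1, the arginase that competes for its substrate, had 4.08, 4.86, 6.16 and 2.97 CPM at 3 h and 11.4, 23.9, 33.3 and 9.18 CPM at 20 h, a late rise without overlap (SE 0.44 on the log2 scale, adjusted p = 4.11e-05). Ass1 and Asl, which rebuild arginine from citrulline, rose by 0.63 and 0.74, and the arginine carrier Slc7a1 rose by 1.61. Acod1, the enzyme of itaconate synthesis, fell by 0.83 and still had 6704 to 7917 CPM, and with library totals its difference of -0.51 was not called.

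Prostaglandin genes split. Of 15 members 8 fell and 4 rose, beside 26.4% and 33% of all genes tested, with a median of -0.30 that was 0.03 with library totals. Ptges, which makes prostaglandin E2, rose from 185, 208, 294 and 201 CPM to 1120, 1100, 1360 and 1358 CPM (2.48, adjusted p = 7.49e-12), and its receptor Ptger2 rose by 2.80. Hpgd, which degrades prostaglandins, had 0.843, 0.792, 0.969 and 0.453 CPM at 3 h and no count in the 4 libraries at 20 h. The constitutive cyclooxygenase Ptgs1 and the leukotriene enzyme Alox5 fell by 5.45 and 3.90. Ptgs2, the inducible cyclooxygenase, fell by 0.81 (adjusted p = 4.13e-04), a call lost with library totals (-0.48) and without the 3 h libraries of series RIB0031 (-0.70).

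In the metal handling list 3 of 13 genes rose, 5 fell and 5 were not called, beside 33% higher and 26.4% lower over all genes tested. Hmox1, which breaks down haem, had 188, 150, 223 and 168 CPM at 3 h and 1475, 1466, 1865 and 1358 CPM at 20 h (3.08, adjusted p = 1.24e-23), and Fth1, ferritin heavy chain, rose by 1.79 to 42141 to 51530 CPM. Spic, a factor of iron-recycling macrophages, rose by 5.74, from 0.735 to 1.25 CPM to 31.2 to 63.3 CPM. Mt2 and Mt1, metallothioneins, fell by 2.86 and 1.40.

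Glycolysis and HIF-1 genes showed no common direction, with 5 of 22 higher, 5 lower and 12 not called. Their median was -0.08, or 0.25 with library totals. Hk2 and Pfkp, hexokinase and phosphofructokinase, each fell by 1.25. Vegfa, a HIF-1 target, rose from 15.7, 15.2, 22.2 and 14 CPM to 70.8, 90.7, 103 and 57.6 CPM (2.27, adjusted p = 7.15e-08), having been below unactivated cells at 3 h. At 20 h its mean was 80.5 CPM, against 98.6 CPM in unactivated cells. Ldha was not called (-0.12, adjusted p = 0.526) and turned sign with library totals.

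Sterol synthesis genes fell in 10 of 23 cases and rose in 2. Idi1, an isomerase of the isoprenoid steps, had 5.34, 5.32, 6.23 and 9.25 CPM at 3 h and 1.17, 1.05, 0.943 and 1.24 CPM at 20 h (-2.56, adjusted p = 1.03e-12), without overlap. Mvd, a decarboxylase of the mevalonate steps, rose by 3.06 and Lss, lanosterol synthase, by 1.70. At 3 h both were below unactivated cells, with means of 2.74 against 7.35 CPM and 3.82 against 9.88 CPM. At 20 h Mvd had 22.6 against 7.38 CPM and Lss 12.4 against 10.3 CPM. Of 11 genes of cholesterol efflux and LXR targets 5 rose and 3 fell. Abca1, the efflux pump, rose by 1.13 and Nr1h3, LXR-alpha, by 1.76, whereas Apoe fell by 1.46. Soat2, which esterifies cholesterol, was late, with 0.792 to 1.69 CPM at 3 h and 50.5 to 69.7 CPM at 20 h (5.62, adjusted p = 1.16e-29).

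Genes of the unfolded protein response and of amino acid stress moved in both directions. Of 29 members 13 rose, 9 of them at least 2-fold, and 7 fell, beside 33% higher and 26.4% lower over all genes tested. Trib3, a pseudokinase target of ATF4 and CHOP, had 3.8, 2.66, 3.95 and 2.85 CPM at 3 h and 278, 279, 248 and 303 CPM at 20 h (6.40, SE 0.22, adjusted p = 2.63e-31). Chac1, which degrades glutathione, had 0.211, 0.0566, 0 and 0.129 CPM and then 16.2, 17.5, 13.8 and 14.4 CPM (7.25, adjusted p = 1.44e-26). No library of one time reached the other in either gene. Ddit3, which encodes CHOP, rose by 4.61 and Asns, asparagine synthetase, by 3.47. The chaperones of the endoplasmic reticulum Calr, Pdia3 and Sdf2l1 fell by 1.02, 0.82 and 0.98. Hspa1b fell by 2.39, but its near-identical copy Hspa1a makes the level uncertain.

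The Chac1 promoter (chr2:119350992-119351291, plus strand, gene at 119351229 to 119354381) holds 1 match to TGATGNAA, letters of the C/EBP-ATF response element, at -193 to -186 on the other strand. This motif was added after the values had been seen, and 3.97% of all promoters hold it.
Chac1: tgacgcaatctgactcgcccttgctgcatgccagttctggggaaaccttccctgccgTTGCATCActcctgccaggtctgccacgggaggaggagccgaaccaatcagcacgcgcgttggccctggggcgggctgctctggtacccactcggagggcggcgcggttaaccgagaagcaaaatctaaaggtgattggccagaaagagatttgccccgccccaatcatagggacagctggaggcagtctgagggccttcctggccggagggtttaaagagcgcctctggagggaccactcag

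Nearly all genes of the cell cycle list fell. Of 31 genes 28 fell, 26 of them at least 2-fold, and 2 rose, with a median of -2.82 in Ahr+/+ and -1.92 in Ahr-/- cells. Mki67, the proliferation antigen Ki-67, had 138, 155, 118 and 151 CPM at 3 h and 15.7, 14.1, 18.4 and 18.1 CPM at 20 h (-3.08, SE 0.19, adjusted p = 1.44e-20). Unactivated cells at 20 h had 246, 244, 268 and 294 CPM, and the change with time differed between activated and unactivated cells (-3.92, adjusted p = 3.83e-19). Ccna2, cyclin A2, fell by 6.92 and Plk1, a mitotic kinase, by 5.55. E2f1 rose by 1.56 after a fall at 3 h, and Ccnd3, cyclin D3, by 0.76. At 20 h E2f1 had means of 39.9 CPM in activated and 41 CPM in unactivated cells.

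Receptors that sense microbes mostly fell. Of 14 Toll-like receptors 8 fell and 2 rose. Tlr3, the sensor of double-stranded RNA, fell from 211, 250, 154 and 187 CPM to 26.1, 23.9, 19.5 and 17.6 CPM (-3.21, adjusted p = 4.30e-13). Tlr2 fell by 0.87, and Tlr4 was not called (-0.41, adjusted p = 0.217). Among 17 scavenger and pattern receptors 10 fell and 3 rose. Mrc1, the mannose receptor, fell by 5.58, from 40.4 to 74.9 CPM to 1.01 to 1.79 CPM, and Trem2, a lipid receptor, by 3.70. Marco, a scavenger receptor for bacteria, rose from 134, 97.1, 235 and 174 CPM to 795, 752, 1640 and 1356 CPM (2.83, adjusted p = 1.02e-08).

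Markers of the macrophage itself moved unequally. Adgre1, which encodes F4/80, had 1430, 1523, 1555 and 1518 CPM at 3 h and 3998, 4333, 4415 and 3941 CPM at 20 h (1.47, SE 0.07, adjusted p = 1.13e-24). Csf1r, the receptor of the macrophage growth factor, had 1337 to 1530 CPM and then 1400 to 1618 CPM, which overlapped (0.05, adjusted p = 0.658), and its sign turned under other settings, while with library totals it was called higher (0.38). Lyz2 fell by 1.03 and Mertk, the receptor for dying cells, by 2.61. Cebpa, a myeloid lineage factor lowered at 3 h, rose by 2.62 and stayed below unactivated cells. Ccr7, which guides cells to lymph nodes, rose from 0.711 to 3.3 CPM to 18.7 to 37.8 CPM (3.62, adjusted p = 3.77e-14).

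Of 28 lysosome and V-ATPase genes 15 fell and 7 rose, of 28 respiratory chain genes 16 fell and 3 rose, and of 82 cytosolic ribosomal protein genes 39 fell and none rose. Their medians of -0.46, -0.30 and -0.35 became -0.14, 0.03 and -0.02 with library totals, so the direction of the respiratory chain depended on the scaling. Tfeb, the factor that drives lysosome genes, rose by 2.90, from 1.24 to 3.81 CPM to 16.4 to 20.7 CPM. It was lowered at 3 h, with a mean of 33.6 CPM in unactivated cells. At 20 h it was still below unactivated cells, with 40.3 CPM there. Ctsl, a lysosomal protease, fell by 1.44.

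**Figure D4:**
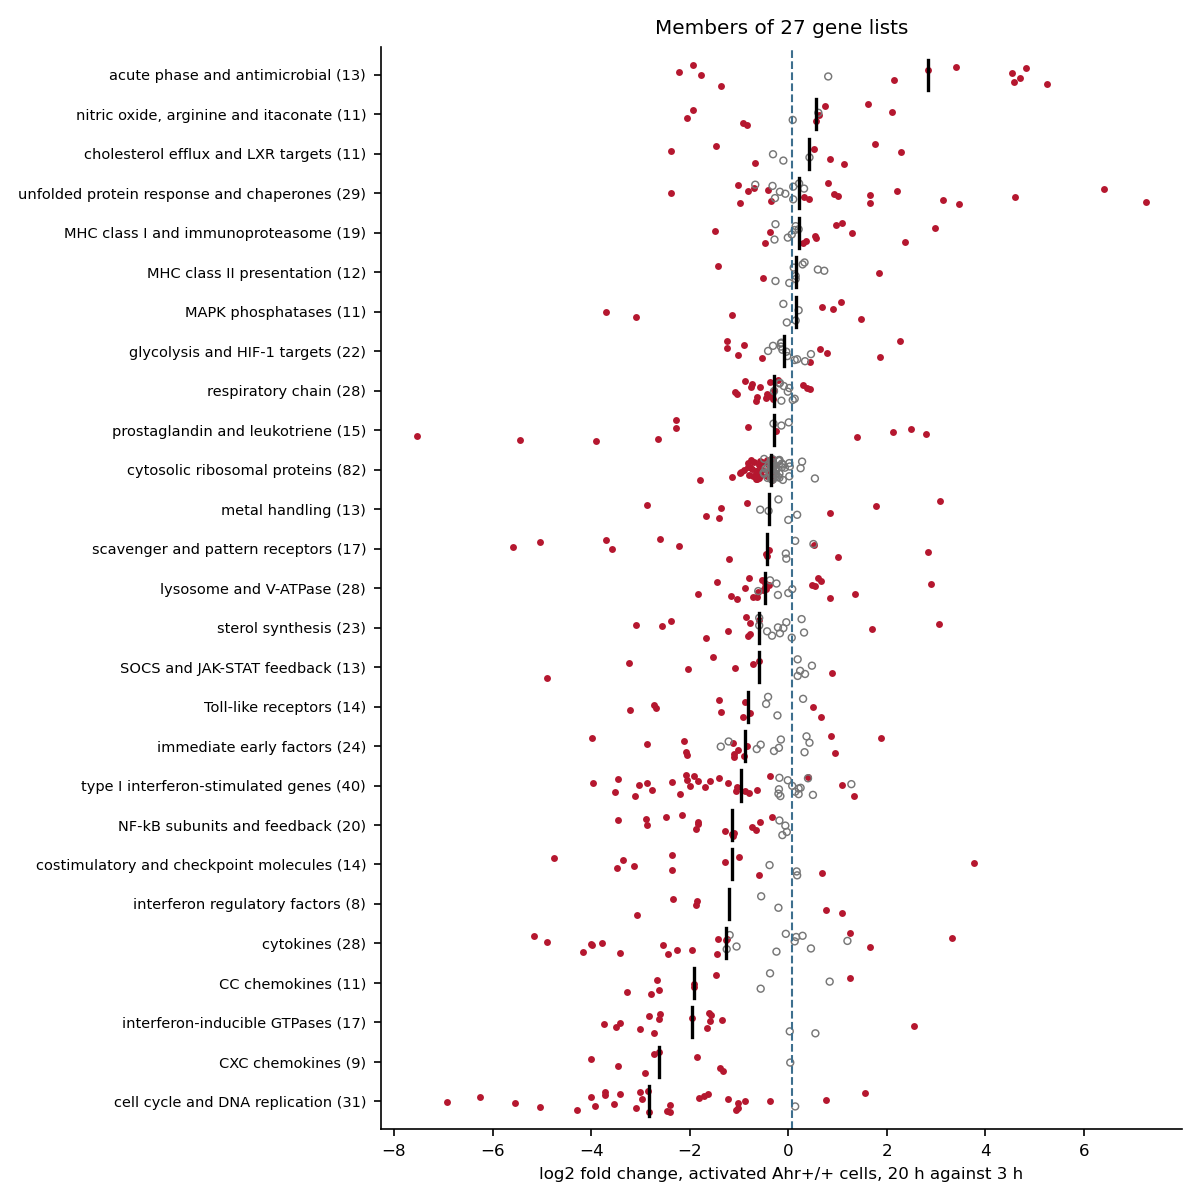
Log2 fold change of 20 h against 3 h in activated Ahr+/+ cells for each member of 27 gene lists, sorted by the list median (black bar); filled points were called, open points were not, and the dashed line is the median of all genes, 0.08. The cell cycle list lies lowest, with a median of -2.82, and the acute phase list highest, with 2.83.

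The genes with the largest changes were of low to moderate level. Wnk2, a kinase, had no count at 3 h and 4.76, 4.86, 8.45 and 4.05 CPM at 20 h, at least 112-fold higher than 3 counts over the 3 h group would give. Ip6k3, an inositol phosphate kinase, had 0, 0.0566, 0 and 0 CPM and then 5.93, 5.45, 6.16 and 7.31 CPM. Slc1a2, a glutamate carrier, rose by 5.67. On the other side Il18rap, a chain of the IL-18 receptor, fell from 8.86, 14.6, 6.16 and 9.76 CPM to 0.0449, 0.0374, 0 and 0 CPM. F3, tissue factor that starts clotting, fell from 9.89 to 15.7 CPM to at most 0.0449 CPM, and Adamts4, a protease of the matrix, from 86.4 to 120 CPM to 0.469 to 0.719 CPM. Dll1, a Notch ligand, and Tnc, the matrix protein tenascin C, were transient and fell by 6.34 and 6.63.

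The time course was compared between genotypes by the test of the difference. The change from 3 h to 20 h differed between Ahr+/+ and Ahr-/- cells for 885 genes (6.09%), 512 with a higher value in Ahr+/+ (3.52%) and 373 with a lower one (2.57%). Il1a, an alarm cytokine, fell by 1.45 in Ahr+/+ cells and had a log2 difference of 0.42 in Ahr-/- cells that was not called. Trib3 rose by 6.40 and 4.86, and Mki67 fell by 3.08 and 1.72. The Ahr-/- libraries at 20 h all carried another identifier series (RIB0020) than the Ahr+/+ ones, so genotype and series cannot be told apart in this difference, and with the series as a covariate 178 genes were called.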

How the data were processed

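RNA of 64 BMM cultures was sequenced by the study as stranded mRNA libraries, in 16 groups of 4. The authors aligned reads with HISAT2 2.1.0 to mm10 and deposited raw counts per gene, made with HTSeq 0.9.1 in its strict mode on stranded exons. They also deposited a table of log2 values after DESeq2's variance stabilising transformation, used here for an alternative. The 5 lines of each count file that name no gene were left out.

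Groups came from the sample titles. The counts were fitted in edgeR 4.0.16 (R 4.3.3) with 16 group means, TMM factors and filterByExpr at a minimum count of 10, which left 14537 genes and 48 residual degrees of freedom. Contrasts were tested with the quasi-likelihood test, Benjamini-Hochberg adjusted over all genes, at 0.01. Fold changes are log2 values from this fit. Their standard errors were computed as the absolute log2 value over the square root of the test's F statistic. DESeq2 1.42.0 and limma 3.58.1 gave alternatives, as did other scalings, filters, covariates and sets of libraries. The fit was tested on simulated data, where 59 of 100 genes with an absolute log2 change of 1 and 87 of 100 with 2 were called. There was 1 false call among 13906 genes. Few genes were changed in it, unlike in these data, so it does not check the scaling. Counting error alone limits genes near 0, and PCR copies are not independent molecules. Gene positions come from GENCODE M21 on GRCm38.

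The named genes were a panel, the 6 largest rises and falls with at least 5 CPM in the higher group and no overlap, the 4 most raised genes of each course class, and the extremes of each list. A few panel and list genes are not reported here. Unnamed gene models were left out of the rises, falls and classes. The members and lists were chosen with earlier results of these data known.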

Additional observations from a re-analysis of the deposited data

Results flagged for a closer look

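Of 170 groups of 4 libraries checked for a library far from the others, 7 had one, and chance gives about 1 in 20. At 3 h these were Socs3 in replicate 2 (1612 CPM), Ldha in replicate 3 (1075 CPM), Slpi in replicate 3 (38.8 CPM), Ip6k3 in replicate 2 (0.0566 CPM) and Edn1 in replicate 3 (151 CPM). At 20 h they were Irf1 in replicate 4 (192 CPM) and Iigp1 in replicate 3 (16.2 CPM).

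For 10 named genes the change from 3 h to 20 h differed between activated Ahr+/+ and Ahr-/- cells by edgeR's quasi-likelihood test of the difference. Given as the log2 change in Ahr+/+ less that in Ahr-/-, it was 1.35 for Dusp1 (adjusted p = 0.00477), -1.87 for Il1a (1.11e-05), -1.68 for Il10 (0.00323) and -2.96 for Csf3 (0.00109). It was 2.05 for Mx1 (0.0028), 0.48 for H2-K1 (0.00742), -1.36 for Mki67 (1.82e-04), -0.55 for Tlr2 (0.00201), 1.53 for Trib3 (1.00e-04) and 1.39 for Soat2 (0.00106). With the library identifier series as a covariate none of the 10 passed 0.01, the adjusted p running from 0.0148 for Mki67 to 1 for Csf3. Without the activated Ahr+/+ libraries of series RIB0031 at 3 h, 6 of them missed it, with an adjusted p of 0.0119 for Dusp1 and for Csf3, 0.0385 for Il10, 0.0245 for Mx1, 0.0476 for H2-K1 and 0.0115 for Soat2. H2-K1 also missed it with library totals (0.0123), with no filter on low counts (0.0296) and in 13 of 16 fits with a library left out, Dusp1 in 9, Il10 in 2 and Mx1 in 1 of those fits, and Soat2 in libraries thinned to the smallest total (0.0316).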

How the results depend on the processing

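The call of 8643 genes at 20 h against 3 h ranged from 8078 to 8315 when a library was left out, and was 9486 with a replicate block and 7364 with only the libraries of series RIB0015. With a fold change of at least 2 asked it was 4897 (2644 higher, 2253 lower), and likewise 4427 for the difference from unactivated cells, 4787 and 4638 for activation at 3 h and 20 h, 4452 in Ahr-/-, 236 in unactivated cells, 266 for the genotype difference, and 345, 147 and 605 for declining, still rising and late genes. The 883 calls in unactivated cells became 1504 with Ahr+/+ libraries without ligand alone, 1941 with the block, 1653 at an adjusted p of 0.05 and 556 to 827 with a library left out, the lowest without 20 h replicate 4. The 885 calls of the genotype difference became 564 with no filter, 1898 with the block, 178 with the series as covariate, 394 without the RIB0031 libraries at 3 h, 1913 at 0.05 and 607 to 1000 with a library left out. Library totals gave 374 transient, 399 declining and 253 sustained genes, and limma on the VST values 259 sustained and 607 late. The 1071 early lowered genes that recovered became 1819 with library totals and 427 with limma. The same replicate numbers at both times of activated Ahr+/+ cells correlated at 0.0795, 0.103, 0.126 and 0.0872, and each library correlated best with its own number, a hint from the data only. In activated Ahr-/- cells the same numbers correlated at 0.312, 0.366, 0.362 and 0.36, but replicate 4 at 20 h reached 0.349 with replicate 3 at 3 h. With the block Ccl2 was called (-0.56).

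Among the 37 settings, differences near 0 turned sign. Dusp1 was 0.30 with library totals, 0.14 with the series covariate, 0.08 with series RIB0015 alone, 0.06 without RIB0031 and -0.17 to 0.09, with 0.03 and 0.04 among them, with a library left out. Il6 was 0.09 with library totals and Il12b 0.27, or -0.21 to 0.02 with a library left out. Isg15 was 0.32 with library totals, 0.07 with the series covariate, 0.02 with RIB0015 alone and -0.12 to 0.04, with 0.03 among them, with a library left out. Cd74 was -0.06 with DESeq2, RLE or min.count 30, -0.01 in Ahr+/+ libraries without ligand or thinned, -0.03 in the 8 libraries alone, -0.08 with limma and -0.20 to 0.16, with -0.12 and -0.09 among them, with a library left out. Slc2a1 and Ldha were 0.02 and 0.21 with library totals. Csf1r was 0.38 with library totals, -0.02 with DESeq2, RLE or RIB0015 alone, -0.03 with min.count 30 or limma, -0.04 without RIB0031 and -0.07 to 0.08, with -0.04 and -0.01 among them, with a library left out. The causes were not tested.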
